A study of Gallus gallus with 24 samples.

Results

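Abdominal fat of chickens at 7 wk of age was compared between the high-growth (HG) and low-growth (LG) genotypes on 4 arrays, those of the series' 24 arrays whose titles give that age. Each array was a 2-colour spotted cDNA array of 19200 spots, hybridised with RNA of 1 HG and 1 LG bird, so that the comparison rests on 4 HG and 4 LG birds of the 48 in the series. The other 20 arrays hold the same comparison at 1, 3, 5, 9 and 11 wk and serve here to estimate the spread and to show where 7 wk differs. All birds were cockerels of genotypes bred apart from a Bresse-Pile population for high or low body weight. Both lines received a vaccine against Marek's disease virus at hatching, and the sources name no transgene or other agent. Feed and water were freely available, and birds were sampled in the fed state. The lines were kept apart as chicks, when LG received its pellets crushed, and were mixed well before 7 wk. The LG bird carried the red dye on arrays 1 and 3, and the HG bird carried it on arrays 2 and 4.

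In birds, most fatty acids are made in the liver and are carried to adipose tissue as triglyceride in lipoproteins. The fat cell takes them up, joins them to glycerol again and stores them in a lipid droplet, from which lipases release them. Stearoyl-CoA desaturase and fatty acid synthase make the monounsaturated and saturated fatty acids of that store, diacylglycerol acyltransferase closes the triglyceride molecule, and adipose triglyceride lipase opens it.

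A value is a log2 ratio of HG over LG from which the median of its array was subtracted, so that 0 is no difference from the typical spot of that array. The deposited ratio is not marked as red over green. That direction was taken as likely from the scanning software's usual ratio and the dyes in the labels, and every sign below would turn with the opposite reading. A ratio holds no level, so that the labelled tissue could not be checked by how much of its defining genes was present. Because each sample was whole tissue, fewer cells of a type and less RNA per cell cannot be told apart. The 7 wk arrays had 18081 to 18397 measured spots. In the ratio of HG over LG, the arrays of the same dye orientation correlated with r of 0.445 (arrays 1 and 3) and 0.539 (arrays 2 and 4) across all spots, and arrays of opposite orientation with r of -0.232 to -0.096. Values of arrays 1 and 3 are therefore set beside those of arrays 2 and 4 where they differ, and the fit held a dye coefficient for each gene.

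At 7 wk, 14 of 6184 genes tested (0.226%) differed between the lines at an adjusted p under 0.05, the threshold used throughout, in limma's fit over all 24 arrays. Of these, 9 genes were higher in HG (0.146%) and 5 lower (0.0809%). At an unadjusted p under 0.05, 439 genes (7.1%) stood apart. Among the 14 were genes for fatty acid and triglyceride synthesis (SCD, FASN and DGAT2) on the higher side, and genes for triglyceride breakdown (PNPLA2), prostaglandin handling (PTGDS and SLCO2A1) and matrix cross-linking (TGM2) on the lower side. Without array 1, 9 genes passed, of which 8 were among the 14 and the other was CHIA. Without array 2, 3 or 4, 0 passed (378, 321 and 354 genes at an unadjusted p under 0.05). All 14 kept their sign in each of these fits, but 13 of them had 1 sign on all 4 arrays, so that this is a description. The 7 wk arrays taken alone, with their own estimate of the spread, gave 0 genes past the threshold and 738 at an unadjusted p under 0.05.

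**Figure D1:**
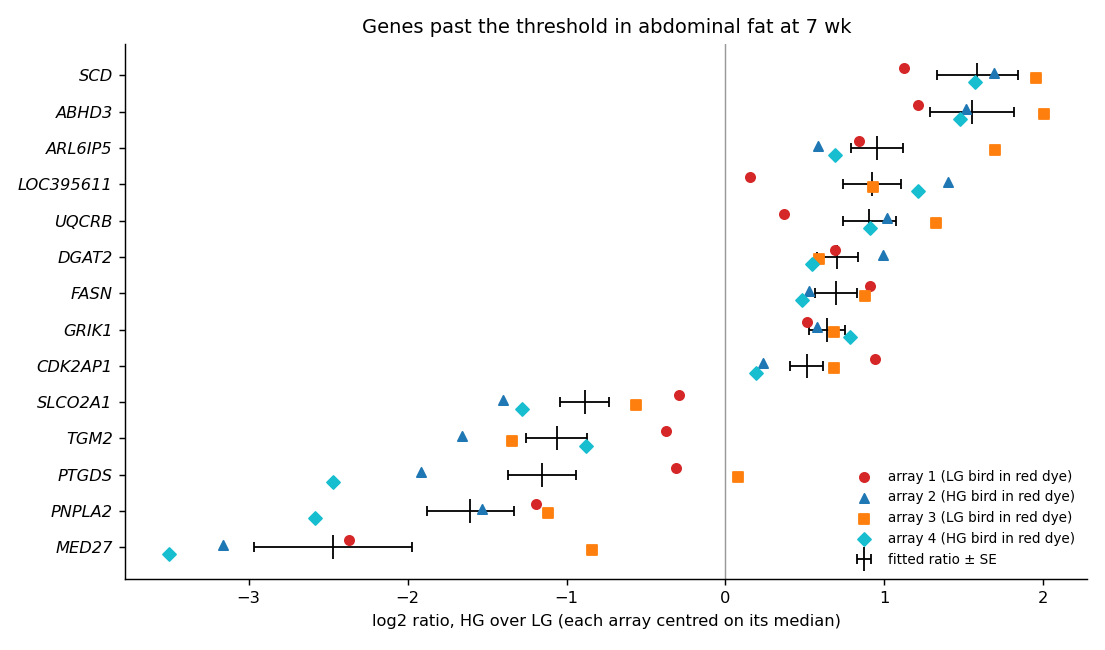
Log2 ratio of HG over LG on each of the 4 arrays (symbols) and fitted ratio with its standard error (black) for the 14 genes past the threshold at 7 wk. On 13 of the 14 genes all 4 symbols lie on one side of 0, and PTGDS is the exception.

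The called genes that make fatty acids and triglyceride were all higher in HG. SCD, stearoyl-CoA desaturase, which puts the first double bond into saturated fatty acids, stood at 1.12, 1.69, 1.95 and 1.57 on arrays 1 to 4. All 4 values were above 1, and the means of the opposite dye orientations were close to each other at 1.54 and 1.63. The fitted log2 ratio was 1.58 ± 0.254 (SE, n = 4 arrays), 3.00-fold higher in HG, with an adjusted p of 0.0191 in limma's test. FASN, fatty acid synthase, which builds palmitate from acetyl and malonyl units, stood at 0.91, 0.52, 0.88 and 0.48. It was higher in HG on every array, more so where LG was in red, with a fitted log2 ratio of 0.70 ± 0.132 (SE, n = 4 arrays; adjusted p = 0.0246 in limma's test). DGAT2, a diacylglycerol acyltransferase that adds the last fatty acid to triglyceride, stood at 0.69, 0.99, 0.59 and 0.55. All 4 values were above 0, highest on array 2, and the fit gave 0.70 ± 0.128 (SE, n = 4 arrays; adjusted p = 0.0192 in limma's test).

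Of 23 measured genes in the list for fatty acid and triglyceride synthesis, 3 passed the threshold on the higher side, beside 0.146% of all genes, and 0 on the lower. This and the later lists, and their members, were chosen with earlier results of these data known, so that counts within lists are descriptions. The list held 19 positive and 4 negative ratios with a median of 0.16, beside 60.5% positive ratios and a median of 0.03 over all genes tested. On 4 of 4 arrays, 6 of the 22 members measured on every array (27.3%) were higher in HG, beside 6.95% of all such genes, and 0 were lower on all 4, beside 5.38%. FADS2, the delta-6 desaturase that starts the synthesis of long polyunsaturated fatty acids, was among these 6, at 0.16, 0.67, 0.99 and 0.49, but was not past the threshold (0.58 ± 0.174, SE, n = 4 arrays; adjusted p = 0.238 in limma's test). ACSL1, which activates long-chain fatty acids by joining them to coenzyme A and which is named after its values were seen, stood at 0.56, 1.09, 1.66 and 0.45, with an adjusted p of 0.436 in limma's test. Its mean of 0.94 was above those of FASN and DGAT2, while its 4 values were more scattered.

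The regulators of these enzymes gave no call. PPARG, the nuclear receptor that drives fat cell differentiation, was above 0 on every array at 0.27, 0.68, 0.37 and 0.47, with a fitted ratio of 0.45 ± 0.198 (SE, n = 4 arrays; adjusted p = 0.604 in limma's test). CEBPA, a transcription factor that acts with PPARG, stood at 0.20, -0.32, 0.25 and 0.11. Its sign differed between arrays, and 1 of its 2 probes had the sign of the fitted ratio. SREBF1, a transcription factor that induces lipogenic enzymes, stood at -0.36, 0.29, -0.55 and 0.57, negative where LG was in red and positive where HG was in red. For SREBF1 too, 1 of 2 probes had the sign of the fitted ratio. CD36, a fatty acid uptake receptor, stood at 0.69, 0.45, 0.93 and 0.34, above 0 on every array with an adjusted p of 0.668 in limma's test. In the list for adipocyte differentiation and lipid uptake, 16 of 18 ratios were positive, beside 60.5% of all genes. The list's median was 0.13, with 0 genes past the threshold. On all 4 arrays, 2 genes (11.1%) were above 0, beside 6.95% of all genes.

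In the sterol list, 14 of 17 ratios were positive, beside 60.5% of all genes, with a median of 0.06 and 0 genes past the threshold. On all 4 arrays, 4 of 17 (23.5%) were above 0, beside 6.95% of all genes. HSD17B7, which also serves cholesterol synthesis, stood at 0.25, 0.58, 0.54 and 0.61 (adjusted p = 0.393 in limma's test), and 2 of its 3 probes had that sign. INSIG1, which holds the sterol-regulated transcription factors back in the endoplasmic reticulum, stood between 0.06 and 0.13 on the 4 arrays.

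The hydrolases PNPLA2 and ABHD3 passed the threshold on opposite sides. PNPLA2, adipose triglyceride lipase, which removes the first fatty acid from stored triglyceride, stood at -1.19, -1.53, -1.12 and -2.58. It was lower in HG by more than 1 log2 unit on every array, furthest on array 4. Arrays 1 and 3 averaged -1.15, and arrays 2 and 4 averaged -2.06. The fitted ratio was -1.61 ± 0.272 (SE, n = 4 arrays), 3.04-fold lower in HG, with an adjusted p of 0.0191 in limma's test. ABHD3, a hydrolase that cleaves phospholipids with medium-chain fatty acids in mice, stood at 1.21, 1.52, 2.00 and 1.48, with a fitted ratio of 1.55 ± 0.262 (SE, n = 4 arrays; adjusted p = 0.0191 in limma's test). Both genes were among 8 measured in the list for lipolysis and the lipid droplet, beside 0.146% of all genes called higher and 0.0809% called lower. Because members were chosen with earlier results of these data known, this count is a description. Of the 8 ratios, 4 were positive and 4 negative, beside 60.5% positive over all genes. The list's median was 0.03. PNPLA3, a lipase of the PNPLA2 family that is named after its values were seen, stood at 0.61, 0.31, 1.03 and 0.47, with a fitted ratio of 0.60 ± 0.147 (SE, n = 4 arrays; adjusted p = 0.118 in limma's test). It was above 0 on every array. MGLL, which releases the last fatty acid, and LIPA, the lysosomal lipase, had fitted ratios of -0.03 and -0.18.

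PTGDS and SLCO2A1, both lower in HG, handle prostaglandins, lipid mediators made from arachidonic acid. PTGDS, prostaglandin D2 synthase, stood at -0.31, -1.91, 0.08 and -2.47. The drop was carried by arrays 2 and 4, where HG was in red (mean -2.19), and arrays 1 and 3 averaged -0.12. The fitted ratio was -1.15 ± 0.213 (SE, n = 4 arrays; adjusted p = 0.0192 in limma's test), while the SD of the 4 values was 1.23. PTGDS was the single gene past the threshold that was not of 1 sign on all 4 arrays. SLCO2A1, the prostaglandin transporter, stood at -0.29, -1.40, -0.56 and -1.28. It was below 0 on every array, and further below where HG was in red, with a fitted ratio of -0.88 ± 0.155 (SE, n = 4 arrays; adjusted p = 0.0191 in limma's test). In the list for steroid, retinoid and prostaglandin metabolism these were 2 calls among 25 measured genes, both lower in HG, beside 0.0809% of all genes called lower, while 17 ratios were positive and 8 negative.

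TGM2, transglutaminase 2, which cross-links proteins of the extracellular matrix, stood at -0.37, -1.66, -1.34 and -0.88. All 4 arrays were below 0, and the fitted ratio was -1.06 ± 0.191 (SE, n = 4 arrays), 2.09-fold lower in HG, with an adjusted p of 0.0192 in limma's test. It was the single call among 51 measured genes of the extracellular matrix list, beside 0.0809% of all genes called lower. The other members leaned to the opposite side, with 42 of 51 ratios positive, beside 60.5% of all genes, and a median of 0.16. On all 4 arrays, 11 genes were above 0 (21.6%, beside 6.95% of all genes) against 1 below. Per array the list's median was 0.28, 0.08, 0.50 and -0.02, higher on both arrays with LG in red. THBS2, the matrix protein thrombospondin 2, stood at 0.02, 0.68, 0.82 and 1.02. The collagen chains COL1A2, at 0.68, 0.76, 1.36 and 0.96, and COL6A3, at 0.41, 1.31, 1.24 and 0.74, are named after their values were seen. Neither was past the threshold, with adjusted p of 0.609 and 0.421 in limma's test.

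Of the remaining genes past the threshold, UQCRB alone was a member of a list. UQCRB, a subunit of respiratory complex III, stood at 0.37, 1.02, 1.32 and 0.91, with a fitted ratio of 0.90 ± 0.166 (SE, n = 4 arrays; adjusted p = 0.0192 in limma's test). It was the single call among 37 nuclear genes of oxidative phosphorylation, beside 0.146% of all genes called higher. Of the 37, 28 had positive ratios, beside 60.5% of all genes, around a median of 0.07. ARL6IP5, a membrane protein of the endoplasmic reticulum, stood at 0.84, 0.58, 1.70 and 0.69. Array 3 was the highest, and arrays 1 and 3 averaged 1.27 against 0.64 on arrays 2 and 4. The fit gave 0.95 ± 0.166 (SE, n = 4 arrays; adjusted p = 0.0191 in limma's test). CDK2AP1, which restrains the cell cycle kinase CDK2, stood at 0.94, 0.23, 0.68 and 0.20, higher where LG was in red, with 0.51 ± 0.104 (SE, n = 4 arrays; adjusted p = 0.0437 in limma's test). GRIK1, a kainate receptor subunit of nerve cells, stood at 0.52, 0.57, 0.68 and 0.78, the narrowest range of the 14. These values are means of a called probe, which alone had a wider range (0.84, 1.25, 1.29 and 1.54), and a probe near 0. The gene listed as LOC395611 stood at 0.15, 1.40, 0.93 and 1.21, with array 1 far below the others. Arrays 1 and 3 averaged 0.54, and arrays 2 and 4 averaged 1.31. The fitted ratio of LOC395611 was 0.92 ± 0.184 (SE, n = 4 arrays; adjusted p = 0.0386 in limma's test).

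MED27, a subunit of the Mediator complex that links transcription factors to RNA polymerase, had the lowest ratio of the 14. It stood at -2.37, -3.17, -0.84 and -3.50, and the fit gave -2.47 ± 0.496 (SE, n = 4 arrays), 5.53-fold lower in HG, with an adjusted p of 0.0391 in limma's test. The value of array 3 was nearest to 0, and arrays 1 and 3 averaged -1.60 against -3.33 on arrays 2 and 4. Several genes had ratios as low without reaching the threshold. HSD11B1B, a gene of the hydroxysteroid dehydrogenases, stood at -1.78, -3.36, -1.48 and -4.87, with a fitted ratio of -2.87 ± 0.597 (SE, n = 4 arrays; adjusted p = 0.0566 in limma's test). AVD, avidin, the biotin-binding protein of egg white, stood at -3.59, -3.33, -0.93 and -4.29 (adjusted p = 0.0804 in limma's test). WBP11, KRT10, SPG7 and NCKAP1L, with ratios of -0.98, -0.65, -1.35 and -0.48, were also next by p among genes negative on each array. By p, WBP11 stood ahead of AVD. R3HCC1 was the next by p among genes positive on each array, at 0.53. Over all genes, 100 differed by more than 2-fold in the fitted ratio, 37 higher and 63 lower in HG, and 6 of these 100 were past the threshold.

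Of the 14 genes, 8 rested on 1 probe and 6 on a pair of probes, and the pairs fell into 2 kinds. The probes of DGAT2 stood at 0.82 and 0.59, those of TGM2 at -1.01 and -1.11, and those of SLCO2A1 at -1.10 and -0.67, so that in each pair both showed the same sign and a similar size. For ABHD3 the probes stood at 2.99 and 0.12, for FASN at 1.37 and 0.03, and for GRIK1 at 1.23 and 0.05. In these pairs a single probe carried the gene's value, and the other was within its own error of 0. The gene ratios of ABHD3, FASN and GRIK1 are thus means of unlike probes. Whether such probes detect different transcripts or a neighbouring gene was not tested.

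**Figure D2:**
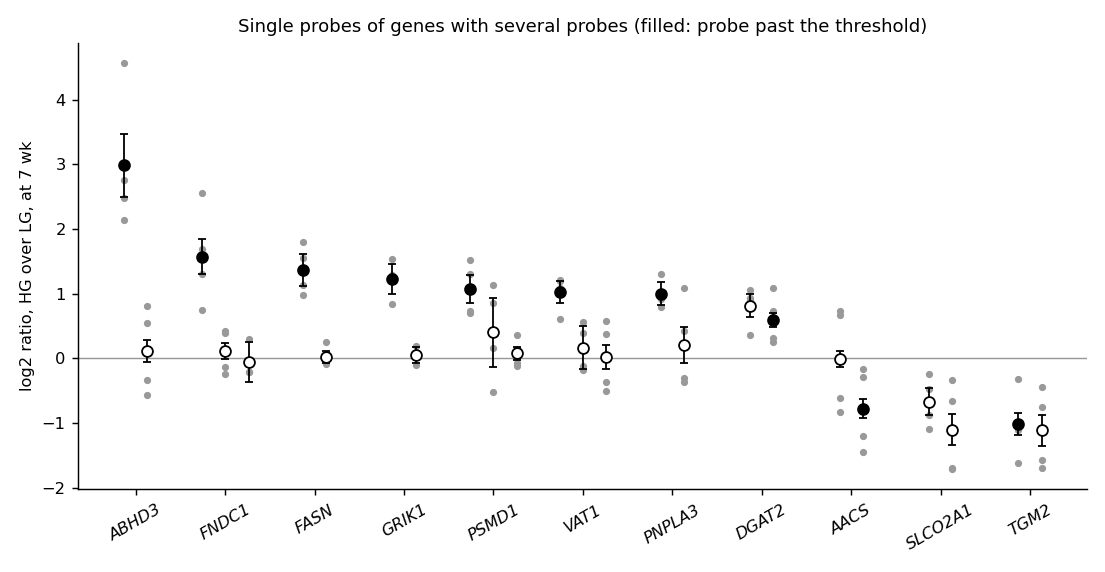
Log2 ratio of HG over LG at 7 wk for each probe (large circle with standard error, filled where the probe was past the threshold; small grey points, the 4 arrays) of the 11 genes with more than 1 probe and a call for the gene or for a probe. The probes of DGAT2, TGM2 and SLCO2A1 lie close together, and those of ABHD3, FASN and GRIK1 lie apart.

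At the level of probes, 38 of 16895 (0.225%) were past the threshold, 30 higher in HG (0.178%) and 8 lower (0.0474%), and 1157 (6.85%) had an unadjusted p under 0.05. On 37 of them all 4 arrays had 1 sign. The platform's annotation named 17 of the 38, each with another symbol. Of these symbols, 5 did not pass as genes because their other probes were nearer to 0, and they are named after their values were seen. They were FNDC1 (1.57 on the called probe), PSMD1 (1.07), VAT1 (1.03), PNPLA3 (1.00) and AACS, whose called probe was lower in HG at -0.78. PSMD1 is a subunit of the proteasome cap, and AACS activates acetoacetate for lipid synthesis.

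Of all 16895 probes tested, 9945 had a symbol. No symbol is listed for 21 of the 38 probes past the threshold, 18 higher and 3 lower in HG. The 9 probes with the smallest p were all among these 21. The highest was the probe 3.3.14, which stood at 4.43, 5.04, 3.77 and 5.57, with a fitted ratio of 4.70 ± 0.502 (SE, n = 4 arrays; adjusted p = 6.4e-05 in limma's test). The probe 8.3.14 followed at 3.61, 4.29, 5.04 and 4.75. Both were far above 0 on every array. The lowest of the unnamed probes were 21.15.10 at -1.43, -1.73, -1.20 and -2.19 and 18.15.13 at -1.42, -1.22, -1.68 and -2.12. Of the 21, 12 were also past the threshold in the mean of the other 5 ages, beside 0.857% of all genes. On all 20 arrays of those ages, 8 were higher in HG. The shares of all probes were not computed for either count, so that both are descriptions.

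The ratios at 7 wk were set against the mean of the other 5 ages, which used 20 other arrays of other birds. Both came from the same fit, with a shared spread and dye coefficient for each gene, so that their calls are not independent. No gene or probe passed the test of a difference between 7 wk and that mean: 0 of 6184 genes (0%) and 0 of 16895 probes (0%) passed in limma's test, with 250 genes (4.04%) and 635 probes (3.76%) at an unadjusted p under 0.05. The smallest adjusted p was 0.907 for genes and 0.776 for probes. In the mean of the other ages, 53 genes were past the threshold (0.857%), and 12 of the 14 genes called at 7 wk were among them. The exceptions were ARL6IP5 (mean 0.31, adjusted p = 0.0569 in limma's test) and PTGDS (mean -0.32, adjusted p = 0.153). All 14 had the same sign at 7 wk as in the mean of the other ages, and 12, 14, 11, 13 and 13 of them had it at 1, 3, 5, 9 and 11 wk. Over all genes, the fitted ratios at these ages correlated with those of 7 wk with r of 0.138, 0.1, 0.124, 0.146 and 0.21. The share of all genes with the same sign was not computed. At these single ages, 0, 0, 3, 2 and 2 of the 14 were past the threshold, beside 0, 0, 23, 2 and 4 of all 6184 genes. All 14 were larger in size at 7 wk than in that mean, but they were chosen for their 7 wk values, so that this count is a description.

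**Figure D3:**
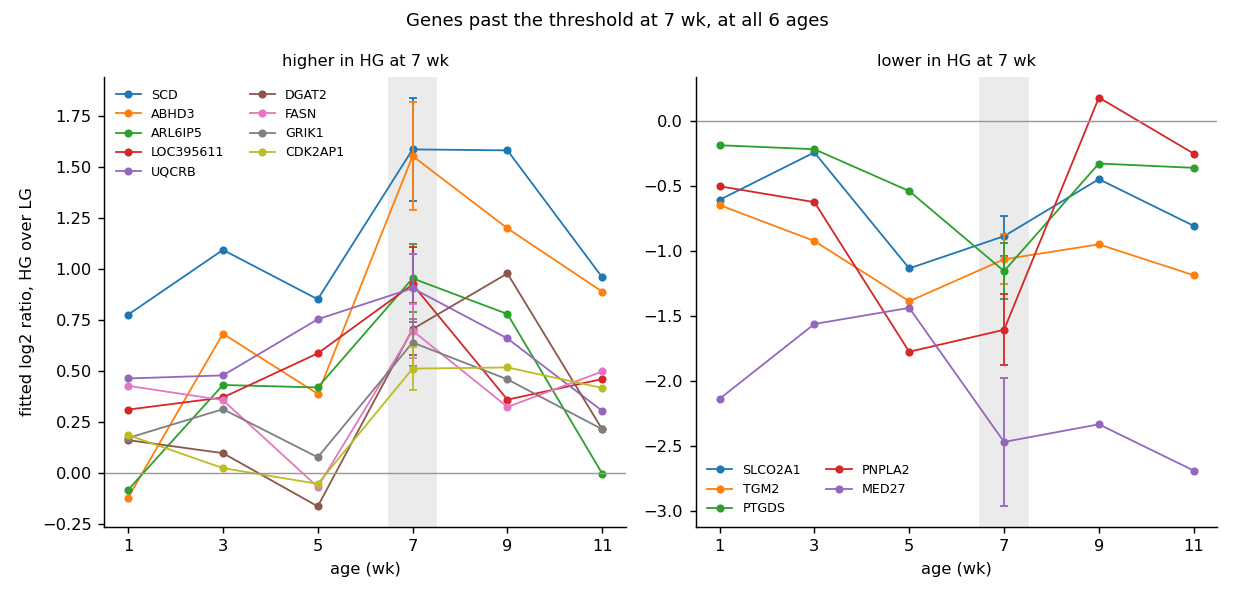
Fitted log2 ratio of HG over LG at 6 ages for the 9 genes higher and the 5 genes lower in HG at 7 wk, with the standard error drawn at 7 wk only. SCD lies at 0.78 or above and TGM2 at -0.65 or below at every age, whereas PNPLA2 is lowest at 5 and 7 wk and stands at 0.18 at 9 wk.

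The 14 genes are described by age in the same order of roles. SCD had ratios of 0.78, 1.09, 0.85, 1.58 and 0.96 at 1, 3, 5, 9 and 11 wk, positive on 20 of 20 arrays. Its 7 wk ratio exceeded the mean of the others by 0.53, with a 95% confidence interval of -0.05 to 1.11. TGM2 stood at -0.65, -0.92, -1.39, -0.95 and -1.19 at those ages with 0 of 20 arrays above 0. The 7 wk ratio was 0.05 below the mean of the others, between -0.48 and 0.39. MED27 likewise ranged from -2.69 to -1.44 at the other ages, with a difference at 7 wk of -0.44 (95% confidence interval -1.57 to 0.70).

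PNPLA2 had ratios of -0.50, -0.62, -1.77, 0.18 and -0.25 at 1, 3, 5, 9 and 11 wk, so that 5 and 7 wk were the ages of the lowest values. The 7 wk ratio was 1.01 below the mean of the others (95% confidence interval -1.64 to -0.39; adjusted p = 0.907 in limma's test). ABHD3 went from -0.12 at 1 wk to 1.20 at 9 wk, and its 7 wk ratio was the highest of the 6 ages, 0.94 above the mean of the others (95% confidence interval 0.34 to 1.55). FASN stood at -0.07 and DGAT2 at -0.16 at 5 wk, before their 7 wk values of 0.70. DGAT2 was higher at 9 wk (0.98), and FASN lower (0.32). For 9 of the 14 genes the difference had an unadjusted p under 0.05 in limma's test, beside 4.04% of all genes. For none did it pass after adjustment over all genes. The 14 were chosen for their 7 wk values, which favours a difference, so that this count and the intervals above are descriptions.

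The genes with the smallest p for a difference between 7 wk and the other ages were not those called at 7 wk. ERLIN1, which promotes degradation of proteins in the endoplasmic reticulum, stood at 3.66, 0.02, 1.08 and 0.28 at 7 wk, against a mean of -0.33 at the other ages. LOC418108 stood at 4.56, 0.67, 1.47 and -0.04. In both, array 1 was far above the other arrays. CHIA, acidic chitinase, stood at 0.37, -4.14, -0.63 and -4.59, and STK10, a protein kinase, at 0.36, -1.49, -0.11 and -1.22. Both were low on the arrays with HG in red and nearer to 0 on the others. The called counts at the single ages were 0, 0, 23, 14, 2 and 4 genes from the youngest to the oldest age, and the 23 of 5 wk were all lower in HG.

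Across the other processes few members were past the threshold. Over all genes, 60.5% of ratios were positive, and 6.95% of genes were above 0 on all 4 arrays. Genes against oxidative stress had 23 of 32 positive ratios with a median of 0.10, 7 members above 0 on all 4 arrays (21.9%) and 0 calls. GCLM, a subunit of the enzyme that limits glutathione synthesis, stood at 0.51, 0.60, 1.18 and 1.72, and FTL, the light chain of ferritin, at 1.98, 0.34, 1.59 and 0.72. Both were above 0 on every array, with adjusted p of 0.718 and 0.582 in limma's test. Proteasome genes had 26 of 33 positive ratios with a median of 0.06, and 5 were above 0 on all 4 arrays (15.2%). Genes of fatty acid oxidation (median 0.04 over 32 genes), glycolysis and the citrate cycle (0.02 over 36), translation factors (0.01 over 39) and endocrine signalling (0.01 over 35) had medians near that of all genes and 0 calls. Chaperones of the endoplasmic reticulum had a median of 0.00 over 22 genes and 0 calls.

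Lists with negative medians were those for complement (-0.09, 12 of 17 negative), interferon response and antigen presentation (-0.07, 15 of 22 negative), cytosolic ribosomal proteins (-0.06, 26 of 41 negative), the cell cycle (-0.05, 20 of 29 negative) and coagulation (-0.01, 8 of 15 negative). All had 0 calls. On all 4 arrays, 3 of 15 coagulation genes (20%) and 3 of 17 complement genes (17.6%) were lower in HG, beside 5.38% of all genes, and 0 and 1 were higher. Of the interferon, ribosomal and cell cycle lists, 2 genes each were lower on all 4 (9.09, 4.88 and 7.69%), and 1, 2 and 2 were higher. C3, the central complement protein, stood at -0.59, -0.52, 0.32 and -2.10. Its array 4 value lay below those of the other arrays. CDKN1A, an inhibitor of cyclin-dependent kinases, was measured on 3 arrays, at -0.61, -1.46 and -1.95, against a mean of 0.66 at the other ages (adjusted p = 0.551 in limma's test at 7 wk). RPL14 and COX7A2L, which the study used as reference genes, had fitted ratios of 0.00 and 0.07. RPL14 stood at 0.11, 0.01, -0.57 and 0.46 on arrays 1 to 4, and COX7A2L between -0.01 and 0.16.

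**Figure D4:**
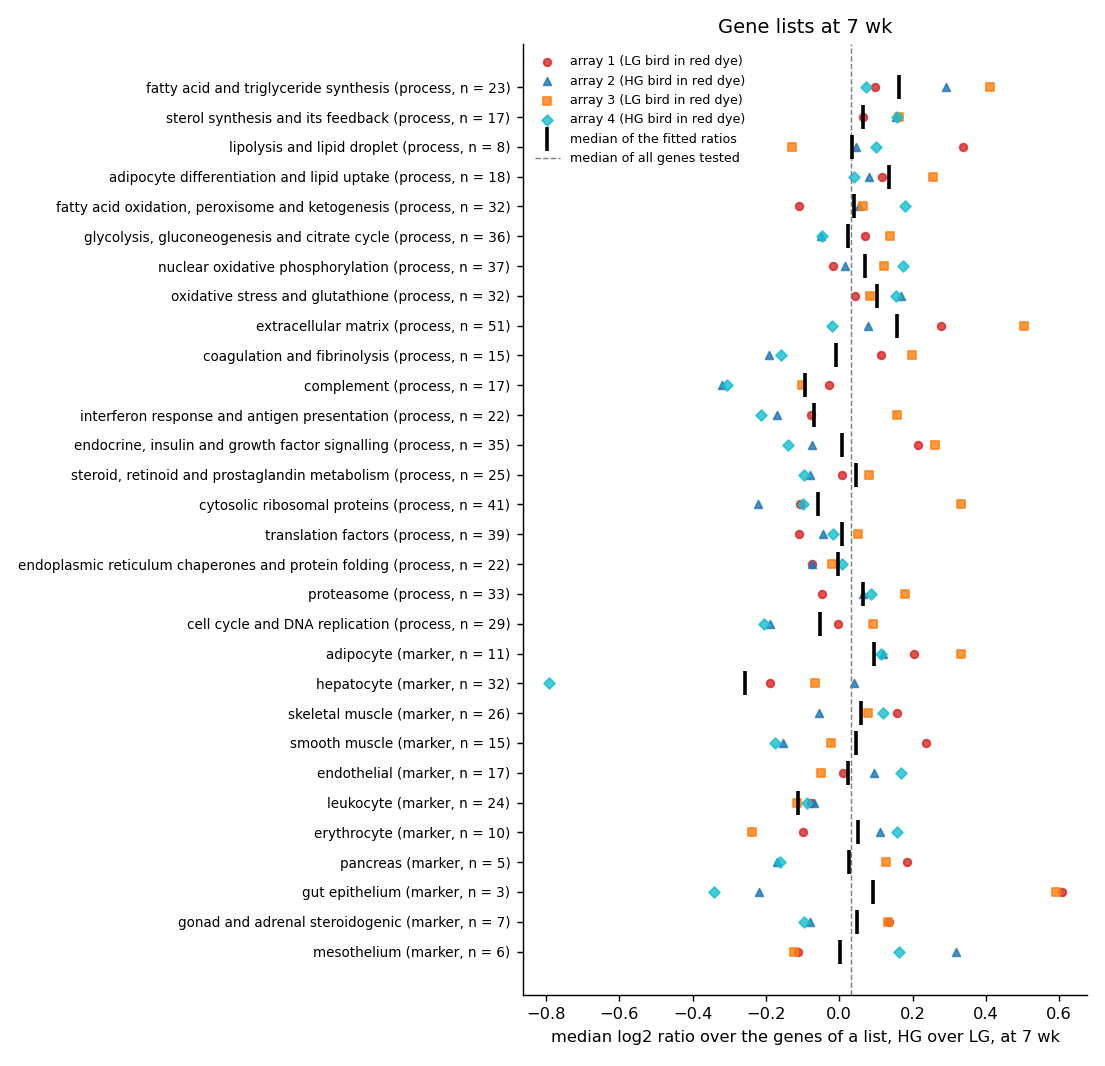
Median log2 ratio of HG over LG at 7 wk over the measured genes of 19 process and 11 marker lists, on each array (symbols) and for the fitted ratios (black bar), with the median of all genes tested (0.03, dashed). The fatty acid synthesis and extracellular matrix lists have the highest bars (0.16), and the hepatocyte list has the lowest (-0.26), with array 4 at -0.79.

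Marker lists of the cell types and neighbouring tissues that an abdominal fat sample can hold were read in the same way, beside 60.5% positive ratios over all genes. The adipocyte list had 9 of 11 positive ratios and a median of 0.09. Its calls were DGAT2 higher and PNPLA2 lower, beside 0.146% of all genes called higher and 0.0809% called lower. PLIN1, the coat protein of the lipid droplet, named after its values were seen, stood at 0.53, -0.17, 0.48 and -0.46. Its sign followed the dye. Skeletal muscle genes had 22 of 26 positive ratios with a median of 0.06 and 0 calls, and CASQ2, a calcium store protein of muscle, stood at 0.56, -0.07, 1.17 and 0.29. MYL1, a myosin light chain of fast muscle, stood at 0.13, -0.08, -0.09 and 0.23. Leukocyte genes had 16 of 24 negative ratios with a median of -0.11, and endothelial genes had 12 of 17 positive with a median of 0.02. For smooth muscle, erythrocyte, pancreas, gut epithelium, steroidogenic and mesothelial markers the medians ranged from 0.00 to 0.09, with 0 calls.

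The hepatocyte list had the lowest median of all 30 lists at -0.26, with 24 of 32 ratios negative, 5 genes below 0 on all 4 arrays (15.6%, beside 5.38% of all genes) and 0 calls. The medians per array were -0.19, 0.04, -0.07 and -0.79. Array 4 stood apart, and without it the list's median was -0.04. F2, prothrombin, stood at -1.01, -1.22, -0.18 and -8.08, and FGA, the alpha chain of fibrinogen, at -0.93, -0.32, -1.21 and -3.57. ALB, serum albumin, stood at -0.06, 0.45, -0.06 and -2.78. For all 3 the lowest value was on array 4, while FGG, the gamma chain of fibrinogen, stood at -0.20, -0.15, 0.20 and -0.16. The lowest values of PNPLA2, PTGDS, MED27, HSD11B1B and AVD were also those of array 4. PTGDS, MED27 and HSD11B1B were low on array 2 too (-1.91, -3.17 and -3.36), the other array with HG in red. TGM2 and SLCO2A1, also called lower, were lowest on array 2 (-1.66 and -1.40), where the list's median was 0.04. The part of liver-type RNA in these ratios was not tested. Without array 4 the fitted ratios of PNPLA2, PTGDS and MED27 were -1.33, -0.90 and -2.20.

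**Figure D5:**
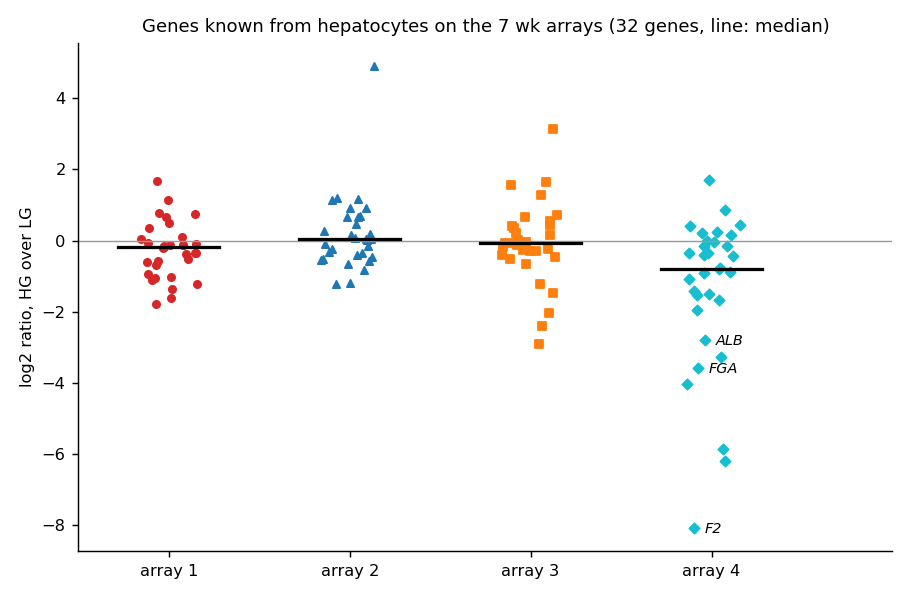
Log2 ratio of HG over LG of 32 genes known from hepatocytes on the 4 arrays at 7 wk, with the median of each array as a line. The medians are -0.19, 0.04 and -0.07 on arrays 1 to 3 and -0.79 on array 4, where F2 lies at -8.08.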

How the data were processed

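The deposited values were log2 ratios per spot of the 2 channels of each array, made by the authors from scanned intensities in GenePix after poor spots were removed by hand. The LOWESS step of the study's own tests is not in them. Values without a ratio, and those at the software's ceiling above 16.6, were set to missing. The labels name an RNeasy kit for RNA extraction and the methods a CsCl gradient, and which was used was not settled.

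Each array was centred on its median and turned to HG over LG. Spots took their names from the annotation of the platform, read with the last 2 numbers of its spot identifiers exchanged, which fits the data better (mean r between spots of a gene 0.0543, against 0.0075 as given): 10601 spots had a symbol and 8599 none. Probes with 3 or more values at each age were kept (16895), and those of 1 symbol were averaged to 6184 genes, leaving out 2 accessions on more than 20 spots. The model of limma 3.58.1 (R 4.3.3) was fitted over all 24 arrays with 6 age coefficients and 1 dye coefficient, checked on simulated data. Its p-values were adjusted by Benjamini-Hochberg over all features. Intensities were not used here, so the number of arrays limits the precision.

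Named genes were those past the threshold and, to 10 in each direction, the next by p among genes of 1 sign on all arrays, the 2 of smallest p in each direction for 7 wk against the other ages, the calls of each list or else its 2 largest ratios, and genes the study discusses. Members and lists were chosen with earlier results of these data known. Alternatives covered centring, scaling, dye terms, filters, array weights, a replicate block, the methods' t-test and leaving out each array. Of these, leaving out values equal to simple ratios and leaving out array 4 of 3 wk were chosen after seeing the data.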

Additional observations from a re-analysis of the deposited data

Results flagged for a closer look

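For 5 named genes, 1 array of the 4 stood apart from the rest by Dixon's test of the gap to the nearest value against the whole range at the 95% level. At a rate of 1 in 20, 4.1 of the 82 genes tested would be flagged. That rate is for alike arrays and for genes chosen without regard to their values. Here dye orientation differed between arrays and many genes were named for their 7 wk values, so that 4.1 is a rough guide only. For ALB, serum albumin, array 4 was the low one (-0.06, 0.45, -0.06 and -2.78 on arrays 1 to 4, ratio 0.841). For F2, prothrombin, it was array 4 as well (-1.01, -1.22, -0.18 and -8.08, ratio 0.869). For FDX1, which passes electrons to steroid-making enzymes, array 4 again lay lowest (0.37, -0.23, 0.09 and -4.99, ratio 0.889). ACADS, which oxidises short-chain fatty acids, was lowest on array 4 within a narrow range (0.57, 0.64, 0.58 and 0.03, ratio 0.879). FGG, the gamma chain of fibrinogen, was highest on array 3 (-0.20, -0.15, 0.20 and -0.16, ratio 0.889). None of these genes was past the threshold at 7 wk.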

How the results depend on the processing

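All 14 genes kept their sign in all 19 alternatives, which is a description, because 13 of them had 1 sign on all 4 arrays. The number of calls moved. Beside 14 genes and 38 probes, values that were not centred gave 7 and 24, arrays scaled to a common spread 7 and 17, and a fit without the dye coefficient 4 and 20. In that last fit PTGDS had an adjusted p of 0.551 in limma's test. A dye coefficient for each age gave 19 and 49. It left out FASN and added AACS, CHIA, CTSC, HSD11B1B, MMD and RFFL to the other 13 genes. The 7 wk arrays alone gave 0 and 0 with a dye coefficient and 1 and 1 without it. Probes measured on all 24 arrays gave 63 calls (genes 14), and array weights gave 98 genes (61 higher, 37 lower) and 330 probes. Leaving out 1 array of 7 wk gave 0 to 9 genes and 6 to 22 probes, and up to 13 and 39 with array 4 of 3 wk left out instead. The methods' t-test gave 354 genes and 829 probes at an unadjusted p under 0.05, and 0 and 0 after Benjamini-Hochberg correction. SCD, PNPLA2 and UQCRB lost their call in 6 of the 19 settings, the fewest of the 14, and FASN in 12, the most. The contrast of 7 wk with the other ages gave 0 calls throughout. The replicate block gave 11 genes and 34 probes, without CDK2AP1, LOC395611 and MED27. Residuals of same-numbered arrays did not go together with those of 7 wk (r -0.172 to 0.0887 over 20 pairs), so the numbers were not read as pairing birds. Without values equal to ratios of whole numbers up to 10, which made up 6.54 to 11.0% of the values of a 7 wk array, 11 genes remained called, without ABHD3, FASN and SLCO2A1. The cause of these shifts was not tested.

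Ratios of 12 named genes changed sign in at least 1 alternative, none of them of a called gene. Not all were near 0 in the reported fit, where FDX1 stood at -1.19, ALB at -0.61, CDC20 at -0.54, FH at -0.48 and ATF4 at -0.34. Over the fits without 1 array of 7 wk, ALB ranged from -1.12 to 0.020, APOA4 from -0.083 to 0.34, CEBPA from -0.069 to 0.12, CPB1 from -0.090 to 0.31, FDX1 from -1.69 to 0.10, MYL1 from -0.0016 to 0.11, RPL14 from -0.10 to 0.14 and SREBF1 from -0.14 to 0.10. ALB, CEBPA and FDX1 turned without array 4 alone. SREBF1 stood at 0.032 with array weights. With 1 probe per gene ATF4 stood at 0.094, CDC20 at 0.28, COX7A2L at -0.094 and FH at 0.056, and CDC20 (0.28) and FH (0.056) had these values too with probes measured on all 24 arrays and without simple ratios. Not centred, MYL1 stood at -0.0055 and RPL14 at -0.049.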

Other observations

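A pair of genes, chosen after their values were seen, had nearly equal ratios on all 4 arrays at 7 wk and were not past the threshold. SFTPA1, surfactant protein A, which is known from the lung, stood at -3.69, -3.81, -3.47 and -3.25. All 4 birds of HG were lower by a similar amount, and the SD of the 4 ratios was 0.248. At 1, 3, 5, 9 and 11 wk its ratios were 1.63, 2.64, 0.71, 0.57 and -2.01, so that its sign differed between ages. With the spread of all ages the fitted ratio was -3.55 ± 1.06 (SE, n = 4 arrays; adjusted p = 0.233 in limma's test), and SFTPA1 was the gene past the threshold when the 7 wk arrays were fitted alone without a dye coefficient. EMCN, endomucin of the vessel lining, stood at 1.14, 0.93, 0.94 and 0.82, with an SD of 0.131. Its mean at the other ages was -0.43, and with the spread of all ages the SE was 0.845 (adjusted p = 0.999 in limma's test). CDH5, the cadherin of endothelial junctions, was the other member of the 17 endothelial genes that was above 0 on all 4 arrays, at 0.64, 0.75, 0.40 and 0.38 (adjusted p = 0.745 in limma's test). The median of that list was 0.02.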
